A study of Mus musculus with 18 samples.

Results

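The change in liver RNA between day 2 and day 4 was measured in mice whose samples are labelled HPNWT. Of the 18 arrays in the study, 6 are in this comparison, 3 at each day, and every transcript cluster with a gene symbol was included, which gave 40161 clusters. A transcript cluster is the set of probes that the array assigns to 1 gene or transcribed region. The 6 arrays labelled EGFP at the same days serve as the background for drift between days. All 4 groups hold livers of adult healthy male mice after transduction with an adeno-associated virus (AAV), a vector that carries a gene into liver cells, with 1 array and 1 animal per sample. EGFP is the green fluorescent protein, used as the control cargo. The study's design text describes hepsin overexpression restricted to the liver, and the labels leave HPNWT unexplained and do not give the start of the day count. The strain, the age in weeks, the promoter of the vector, the share of hepatocytes that took it up and the batch of hybridisation are not given in the sources used here. The series title names liver regeneration and epidermal growth factor receptor signalling as the study's subject.

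Adult hepatocytes rarely divide, and after a growth signal they first copy their DNA and then pass through the G2 phase and mitosis, each phase having its own set of periodically transcribed genes. Mitotic genes are switched on late, through promoter elements read by the DREAM and B-MYB complexes and by the factor NF-Y. Interferon-stimulated genes are an antiviral set that interferons switch on, through a repeated GAAA element in the promoters of these genes. Acute phase genes encode plasma proteins that hepatocytes make in response to interleukin-6 and interleukin-1 during inflammation.

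Hpn, which encodes the membrane serine protease hepsin, was not called between the days. Its log2 signals in HPNWT livers were 8.21, 8.19 and 8.16 at day 2 and 8.17, 8.11 and 8.62 at day 4, a difference of 0.11 (SE 0.12, limma adjusted p = 0.849). In EGFP livers they were 8.23, 8.31 and 8.25 at day 2 and 8.30, 8.18 and 8.09 at day 4. This signal gives no check of the labels, and whether the array's probes match the transcript of the vector is not given in the sources used here. Groups are called HPNWT livers and EGFP livers by their labels only.

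The arrays were alike, with correlations of 0.986 to 0.998 among the 6 HPNWT arrays. The array of HPNWT day 4 replicate 3 lay far from the rest along the second principal component (score 50.9, against −18.6 to 16 for the other 17 arrays), and results that turn on it are given with and without it. The 5222 negative-control probe sets had a mean 95th percentile of 6.16 on the log2 scale. A gene whose signal lies under that value is called dim here, and its differences are differences of log2 signal, given without a fold. The array measures bulk tissue, so fewer cells of a type and less RNA per cell cannot be told apart.

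From day 2 to day 4, HPNWT livers gained RNA of mitotic genes, of interferon-stimulated genes and of a few stress genes, and lost RNA of serum amyloid A and other acute phase genes. A cluster was called where the Benjamini-Hochberg adjusted p of limma, over all clusters tested, was under 0.05. That held for 86 clusters (0.214%), of which 80 were higher at day 4 (0.199%) and 6 were lower (0.0149%). In all 86 the 3 arrays of day 4 lay outside the range of the 3 arrays of day 2, which was so in 11.4% of all clusters, and in EGFP livers in 16.8%. The rise was at least 2-fold on the fitted scale, dim clusters included, in 17 clusters and the fall in 4. The median difference over all clusters was −0.00197 log2. Of the called clusters, 74 carry a single established symbol, 9 are predicted genes, pseudogenes or small RNAs and 3 carry several symbols. In 41 of the 68 established genes that rose, both days were dim.

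**Figure D1:**
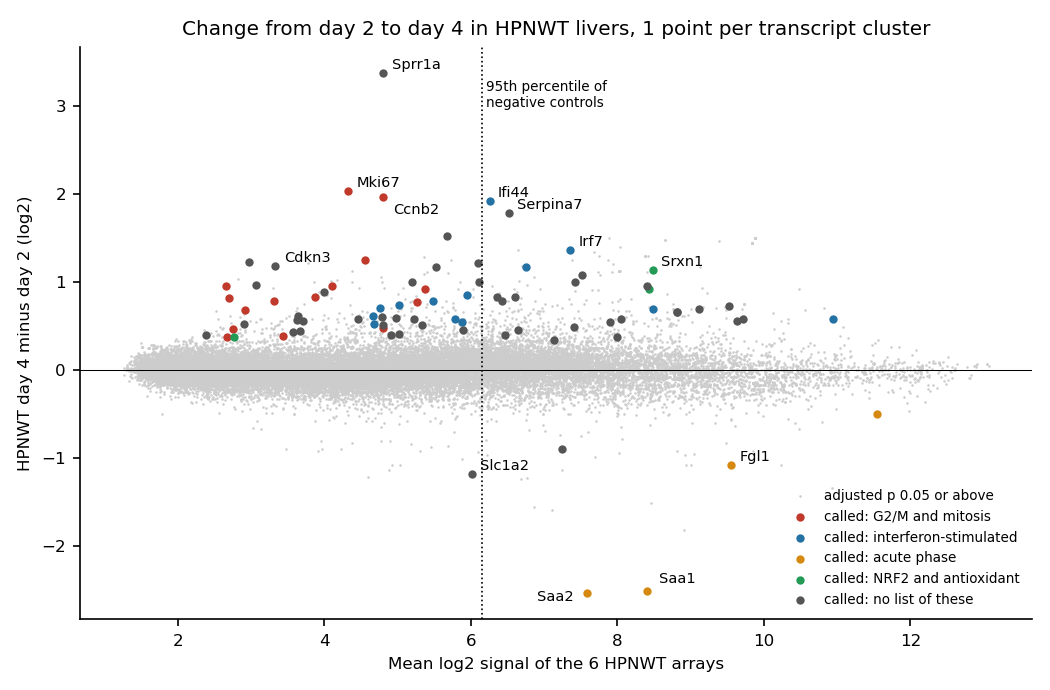
Difference between day 4 and day 2 in HPNWT livers (log2, vertical) against the mean log2 signal of the 6 arrays (horizontal). Each point is the brightest transcript cluster of a single symbol. Coloured points are called clusters, without the 3 called clusters that carry several symbols. The dotted line marks the 95th percentile of the negative controls at 6.16. The called mitotic genes lie to its left, and the 4 called acute phase genes lie below 0 on its right.

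In EGFP livers no cluster was called between the same days by limma (0 of 40161, 0%), and 2035 had an unadjusted p under 0.05 against 3198 in HPNWT livers. The smallest adjusted p in EGFP livers was 0.935. A difference of changes, the HPNWT change minus the EGFP change, was tested in the same fit. It was called for 2 clusters (0.00498%), Cdkn3 and Ccnb2. It had the sign of the HPNWT change in all 86 called clusters, with an unadjusted p under 0.05 in 83 of them. For most called genes the change in HPNWT livers was therefore not shown to differ from that in EGFP livers after adjustment.

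The promoters of 4 called mitotic genes are shown first, because the elements named above lie close to the start of such genes. They are the called members of the mitotic list with the smallest p among those with a sequence entry. Genes on the chromosome that holds Kif20a were left out of this choice. Each sequence gives the 250 bases before the start of the gene in RefSeq on GRCm38.p6, 5′ to 3′ on the strand of the gene. The start is taken as the end of the window. It met the start in the RefSeq gene table in 19585 of the 27024 windows with a gene there. Whether it did in the printed windows is not given. Capitals mark CCAAT, the word bound by NF-Y, and TTTGAA, the core of the cell cycle homology element, on either strand. The windows are chr9:70421555-70421804 on the minus strand for Ccnb2, chr7:135716380-135716629 on the minus strand for Mki67, chr7:80294201-80294450 on the plus strand for Prc1 and chr2:164769679-164769928 on the plus strand for Ube2c.
Ccnb2: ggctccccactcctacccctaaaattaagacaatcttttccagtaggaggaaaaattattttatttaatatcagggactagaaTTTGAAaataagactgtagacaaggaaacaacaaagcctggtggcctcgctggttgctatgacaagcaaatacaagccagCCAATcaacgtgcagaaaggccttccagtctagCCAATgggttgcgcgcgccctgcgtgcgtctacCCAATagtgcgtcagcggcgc
Mki67: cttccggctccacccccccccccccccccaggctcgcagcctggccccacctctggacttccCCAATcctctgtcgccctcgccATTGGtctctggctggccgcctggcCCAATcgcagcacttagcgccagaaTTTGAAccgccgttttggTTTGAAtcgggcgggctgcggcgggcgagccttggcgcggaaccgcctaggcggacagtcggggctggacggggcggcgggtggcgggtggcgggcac
Prc1: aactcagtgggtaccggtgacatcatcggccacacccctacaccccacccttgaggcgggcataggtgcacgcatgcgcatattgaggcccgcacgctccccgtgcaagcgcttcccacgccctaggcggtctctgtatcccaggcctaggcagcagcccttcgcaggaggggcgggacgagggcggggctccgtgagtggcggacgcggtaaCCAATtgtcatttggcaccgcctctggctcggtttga
Ube2c: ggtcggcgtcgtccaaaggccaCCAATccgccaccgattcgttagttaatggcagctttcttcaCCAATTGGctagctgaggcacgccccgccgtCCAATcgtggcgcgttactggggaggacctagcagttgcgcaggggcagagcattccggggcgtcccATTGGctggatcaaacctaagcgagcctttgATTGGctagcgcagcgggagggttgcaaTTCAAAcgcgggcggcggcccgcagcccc
Ccnb2 held 3 CCAAT matches, which end 83, 50 and 17 bases before the start. In Ube2c 2 of the 6 matches overlap. CCAAT stood in 34.5% of 27025 RefSeq promoter windows of this length and TTTGAA in 16.3%. Of the 46 measured mitotic genes with a window, 34 held CCAAT (73.9%) and 16 held TTTGAA (34.8%), and of the 12 called ones 11 held CCAAT (91.7%). Among the 38 measured genes of DNA replication with a window, 24 held CCAAT (63.2%). A match describes the letters of the window and is not a measured site.

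The interferon-stimulated genes Bst2, Oas1a and Gbp3 are shown because they rose and hold the word GAAA, any 2 bases and GAAA again, the core of the interferon-stimulated response element. They were chosen after their values were seen. Capitals mark the matches on either strand, 2 in each window, which overlap each other. The windows are chr8:71537473-71537722 on the minus strand for Bst2, chr5:120907526-120907775 on the minus strand for Oas1a and chr3:142559794-142560043 on the plus strand for Gbp3.
Bst2: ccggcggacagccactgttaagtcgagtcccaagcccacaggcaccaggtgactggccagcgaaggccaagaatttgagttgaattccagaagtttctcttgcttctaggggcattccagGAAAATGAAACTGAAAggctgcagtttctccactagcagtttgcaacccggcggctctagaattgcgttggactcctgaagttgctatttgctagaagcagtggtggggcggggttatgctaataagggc
Oas1a: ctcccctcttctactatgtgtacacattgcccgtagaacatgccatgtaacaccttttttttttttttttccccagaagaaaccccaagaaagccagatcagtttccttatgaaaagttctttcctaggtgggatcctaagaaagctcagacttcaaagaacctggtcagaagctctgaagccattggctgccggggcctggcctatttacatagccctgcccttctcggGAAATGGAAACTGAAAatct
Gbp3: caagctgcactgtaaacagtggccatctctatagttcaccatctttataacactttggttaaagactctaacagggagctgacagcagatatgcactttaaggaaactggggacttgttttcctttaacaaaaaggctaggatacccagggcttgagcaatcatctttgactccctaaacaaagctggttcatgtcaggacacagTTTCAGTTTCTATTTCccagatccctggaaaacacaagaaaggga
The word stood in 3.04% of all windows, in 17 of the 32 measured interferon-stimulated genes with a window (53.1%) and in 5 of the 10 called ones (50%). In Oas1a the matches end 11 and 5 bases before the start, and in Bst2 they end 121 and 115 bases before it.

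Among genes of G2 and mitosis, 15 of the 54 measured list members were called higher at day 4 and none lower, against 0.213% of all single-symbol genes called higher. The list's median difference was 0.43 log2 in HPNWT and 0.05 in EGFP livers. In 53 members the difference was above 0, and in 48 all 3 arrays of day 4 lay above all 3 of day 2, against 7.47% of all single-symbol genes. All members were dim on both days. The median signal of the list was 3.15, 3.08 and 3.19 in the 3 arrays of day 2 and 3.43, 3.49 and 3.98 in those of day 4. The days did not overlap, and replicate 3 was the highest array of day 4.

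Mki67, whose product coats mitotic chromosomes and is a standard proliferation marker, had log2 signals of 3.24, 3.20 and 3.48 at day 2 and 4.83, 4.92 and 6.31 at day 4. In EGFP livers it stayed between 2.81 and 3.07 on both days. It rose by 2.04 (SE 0.25, limma adjusted p = 0.00188) in HPNWT livers, where the days did not overlap. Ccnb2, a B-type cyclin that activates the mitotic kinase Cdk1, had 3.88, 3.74 and 3.82 at day 2 and 5.37, 5.52 and 6.47 at day 4. In EGFP livers its 6 arrays lay between 3.53 and 3.82, at the level of HPNWT day 2. Ccnb2 rose by 1.97 (SE 0.19, limma adjusted p = 0.000193), and its change differed from that in EGFP livers by 1.87 (SE 0.26, adjusted p = 0.0449).

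Cdkn3, a phosphatase that acts on cyclin-dependent kinases and is not on the list, had 2.78, 2.79 and 2.65 at day 2. At day 4 Cdkn3 had 3.73, 4.15 and 3.91. Replicate 3 was the middle array of day 4 here, unlike in Mki67 and Ccnb2, where it was the highest. Cdkn3 rose by 1.19 (SE 0.09, limma adjusted p = 2.27e-05), and the difference of changes was 1.12 (SE 0.13, adjusted p = 0.00739). In EGFP livers its 6 arrays lay between 2.51 and 2.64. Kif20a, a kinesin of the central spindle, had 3.93, 3.90 and 3.96 at day 2 and 4.85, 4.90 and 5.82 at day 4, a rise of 1.26 (SE 0.17, adjusted p = 0.00307). Its EGFP arrays lay between 3.69 and 3.78.

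The other called members of the list cover cyclins, the spindle and the separation of cells, and those named here beyond the landmark genes were chosen after their values were seen. The cyclins Ccna2 and Ccnb1 rose by 0.84 and 0.82, and Top2a, the topoisomerase that untangles chromosomes, rose by 0.69 with an adjusted p of 0.0497. The spindle assembly factor Tpx2 and the hyaluronan-mediated motility receptor Hmmr each rose by 0.96, the mitotic kinase Plk1 by 0.92 and the microtubule bundler Prc1 by 0.79. Ube2c, the ubiquitin-conjugating enzyme of the anaphase-promoting complex, rose by 0.78, and Nek2, Kif4, Racgap1 and Nuf2 by 0.38 to 0.48. Outside the list, Ckap2 (0.97), Knstrn (0.89), Stmn1 (0.60) and Diaph3 (0.53) rose as well, of which Ckap2 and Knstrn encode proteins of the spindle and Stmn1 a protein that destabilises microtubules.

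Other members with differences of similar size did not pass the test. Ect2, which directs the cleavage furrow, differed by 1.01 (adjusted p = 0.0973), the spindle motor Kif11 by 0.94 (0.0893) and the anaphase activator Cdc20 by 0.89 (0.110). Kif11 had a standard deviation of 0.738 over the 3 arrays of day 4 against 0.0574 over those of day 2. The kinases Cdk1, Aurka and Aurkb differed by 0.47, 0.43 and 0.32 with adjusted p of 0.0671, 0.246 and 0.244. None of the 54 had a negative difference with an unadjusted p under 0.05.

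No gene of DNA replication and S phase was called between the days. The higher day's mean reached the negative-control percentile in 2 of the 48 measured members. The others, Mcm6 and Mcm2 included, were dim on both days. Of the 48, 5 had an unadjusted p under 0.05, all with a positive difference, against 5.32% of all single-symbol genes. In 8 all arrays of day 4 lay above all arrays of day 2, against 7.47%. Without HPNWT day 4 replicate 3, 1 had such a p, against 3.25%. The median difference was 0.08 log2 in HPNWT and 0.07 in EGFP livers. Mcm6, a subunit of the replicative helicase, had 5.50, 5.18 and 5.88 at day 2 and 5.54, 5.70 and 5.91 at day 4, and 4.07 to 4.24 in the EGFP arrays. The HPNWT days overlapped, and both lay above every EGFP array. The Mcm6 mean in HPNWT livers was 4.19 at day 1, 5.52 at day 2 and 5.72 at day 4. The helicase subunit Mcm2 had a difference of 0.08 (adjusted p = 0.909) between signals of 5.74 to 5.97 at day 2 and 5.69 to 6.31 at day 4. The Mki67 mean was 2.90 at day 1, 3.31 at day 2 and 5.35 at day 4, and that of Ccnb2 was 3.72, 3.81 and 5.79. The differences between day 1 and the later days were not tested here.

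Regulators upstream of division were not called. Among 18 measured G1 cyclins and inhibitors of cyclin-dependent kinases the median difference was 0.09. An unadjusted p under 0.05 and a positive difference held for 1 of them, against 5.32% of all single-symbol genes. Cdkn1a, the p53-responsive inhibitor of cyclin-dependent kinases, differed by 0.13 (SE 0.29, adjusted p = 0.941). Of 22 p53 targets none was called, and the median of 0.14 in HPNWT livers stood beside 0.13 in EGFP livers. In HPNWT livers 5 of the 22 had an unadjusted p under 0.05 and a positive difference, against 5.32%, and 0 a negative one. In EGFP livers 4 had such a p and a positive difference, against 2.47%. Without HPNWT day 4 replicate 3 the HPNWT number was 3, against 3.25%. None of 39 genes of receptor tyrosine kinase signalling and ERK feedback was called (median 0.06), nor any of 30 immediate early genes (median 0.17). Of the immediate early genes 6 had an unadjusted p under 0.05 and a positive difference, against 5.32% of all single-symbol genes. In EGFP livers 5 did, against 2.47%. Without HPNWT day 4 replicate 3 the HPNWT number was 1, against 3.25%. Egr1, an immediate early transcription factor, had means of 8.86 at day 2 and 8.98 at day 4, with 7.58 and 7.69 in EGFP livers. Both HPNWT days stood above both EGFP means, without a called change between the days (difference 0.12, adjusted p = 0.936).

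Histone genes and Hippo targets gave 1 call. H2afz, a replication-independent histone variant, rose by 0.49 (adjusted p = 0.0455). It was the single call among 39 histone genes, against 0.213% of all single-symbol genes called higher. Their median difference was 0.17 in HPNWT and 0.07 in EGFP livers. Of them 9 had an unadjusted p under 0.05 and a positive difference, against 5.32%. Without HPNWT day 4 replicate 3 that number was 3, against 3.25%. Of 23 Hippo and YAP targets none was called, with a median of 0.08. Of these, 7 had an unadjusted p under 0.05 and a positive difference, against 5.32% of all single-symbol genes. Without HPNWT day 4 replicate 3 that number was 1, against 3.25%.

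**Figure D2:**
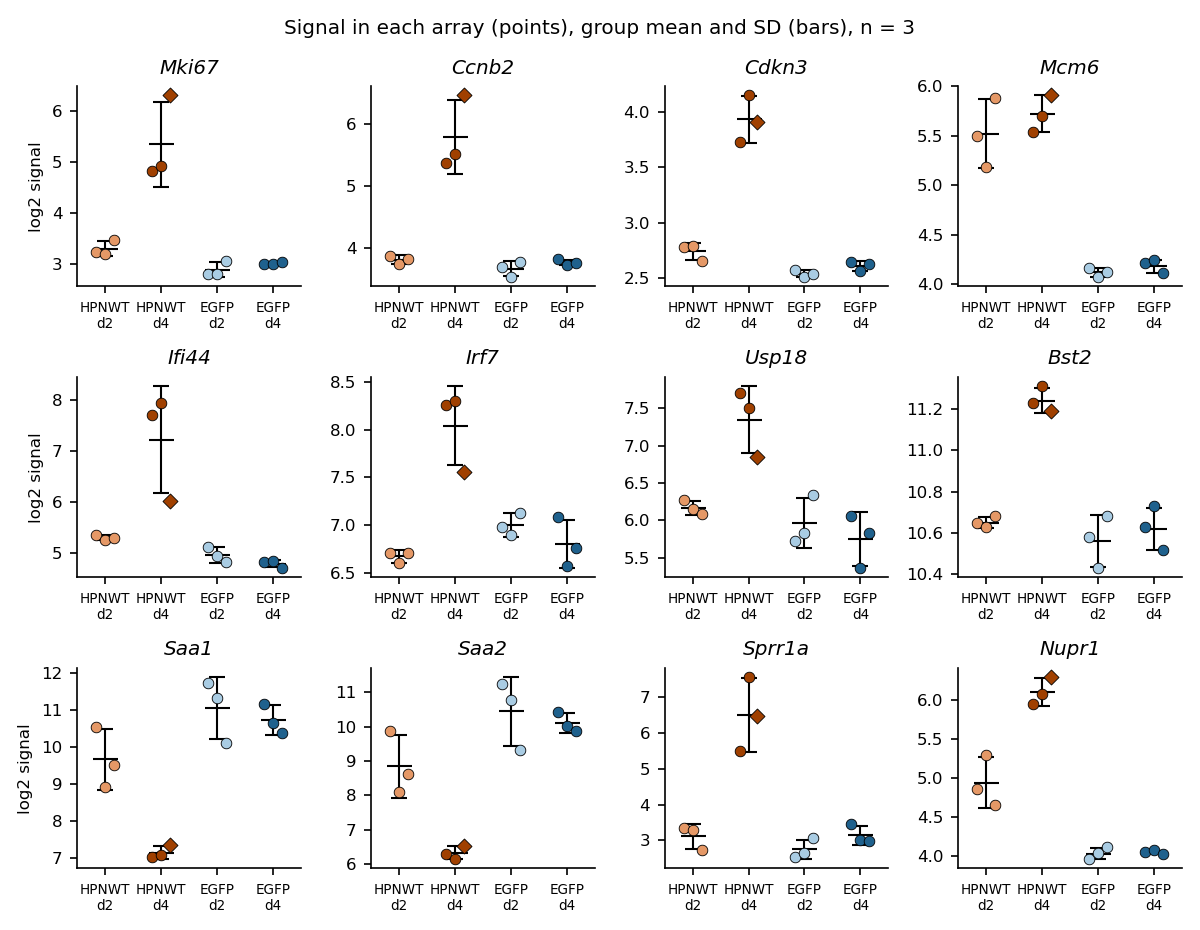
Log2 signal of 12 genes in each array, by vector and day (points), with the group mean and SD (bars, n = 3). Diamonds mark HPNWT day 4 replicate 3: it is the highest array of that group in Mki67 and Ccnb2 and the lowest in Ifi44, Irf7 and Usp18, while Saa1 and Saa2 are low in all 3 arrays of HPNWT day 4.

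Interferon-stimulated genes were the other large group that rose. Of 45 measured members, 13 were called higher and none lower, against 0.213% of all single-symbol genes called higher. All 45 differences were above 0, and in 35 the arrays of day 4 lay above all arrays of day 2, against 7.47% of those genes. The median difference was 0.49 log2 in HPNWT and −0.08 in EGFP livers. The median signal of the list was 5.65, 5.51 and 5.48 at day 2 and 6.27, 6.19 and 6.15 at day 4, so the 3 arrays of day 4 were close together. In EGFP livers it was 5.53, 5.36 and 5.61 at day 2 and 5.62, 5.36 and 5.54 at day 4.

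Irf7, the transcription factor that amplifies the type I interferon response, had 6.71, 6.60 and 6.71 at day 2 and 8.26, 8.30 and 7.56 at day 4. It rose 2.58-fold, by 1.37 log2 (SE 0.17, limma adjusted p = 0.00188), while its EGFP arrays ran from 6.89 to 7.13 at day 2 and from 6.57 to 7.08 at day 4. The HPNWT arrays of day 2 thus lay below those of EGFP at day 2, and those of day 4 above all EGFP arrays. Ifi44, an interferon-inducible protein, had 5.35, 5.25 and 5.30 at day 2 and 7.70, 7.93 and 6.01 at day 4. Replicate 3 was the lowest array of day 4 and still lay above every array of day 2. Ifi44 rose by 1.92 (SE 0.32, adjusted p = 0.0194).

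Usp18, the protease that removes Isg15 from proteins and damps interferon signalling, had 6.28, 6.15 and 6.09 at day 2 and 7.71, 7.50 and 6.85 at day 4, a rise of 1.18 (SE 0.21, adjusted p = 0.0265). Bst2, tetherin, which holds budding viruses at the membrane, had 10.65, 10.63 and 10.68 at day 2 and 11.23, 11.31 and 11.19 at day 4. This was the brightest called member, with a rise of 1.51-fold (0.59 log2, SE 0.09, adjusted p = 0.0102) and a tight spread on both days.

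The sensor of left-handed nucleic acids Zbp1 rose by 0.86, and the immunoproteasome subunit Psmb8 by 0.58 with an SE of 0.07 (adjusted p = 0.00218). Other called members given here were chosen after their values were seen. The oligoadenylate synthetases Oas1a and Oas1g rose by 0.79 and 0.53 and their relative Oasl2 by 0.62, Rsad2 (viperin) by 0.74, the guanylate-binding protein Gbp3 by 0.71 and Cmpk2, a mitochondrial nucleotide kinase, by 0.55. Outside the list, the apolipoprotein L genes Apol9a and Apol9b, which resemble each other and can share probe signal, rose by 1.09 and 1.00. Also outside it, Parp12 (0.55), Uba7 (0.52), Ddx60 (0.57), Trim30a (0.52), Trim30d (0.58), Ly6e (0.38), the class I histocompatibility gene H2-Q4 (0.35) and the secreted Lgals3bp (0.58) rose.

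Not every interferon-responsive gene was called. Cxcl9, a chemokine induced by interferon gamma, differed by 1.06 (adjusted p = 0.346), Ifit1 by 0.94 (0.151) and Isg15 by 0.48 (0.324). Mx1, Mx2, Irf1 and Stat2 differed by 0.02 to 0.07. No member was called in the difference of changes with all arrays, and 33 of 45 had an unadjusted p under 0.05 there, all in the direction of a larger rise in HPNWT livers, against 3.28% of all single-symbol genes.

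**Figure D3:**
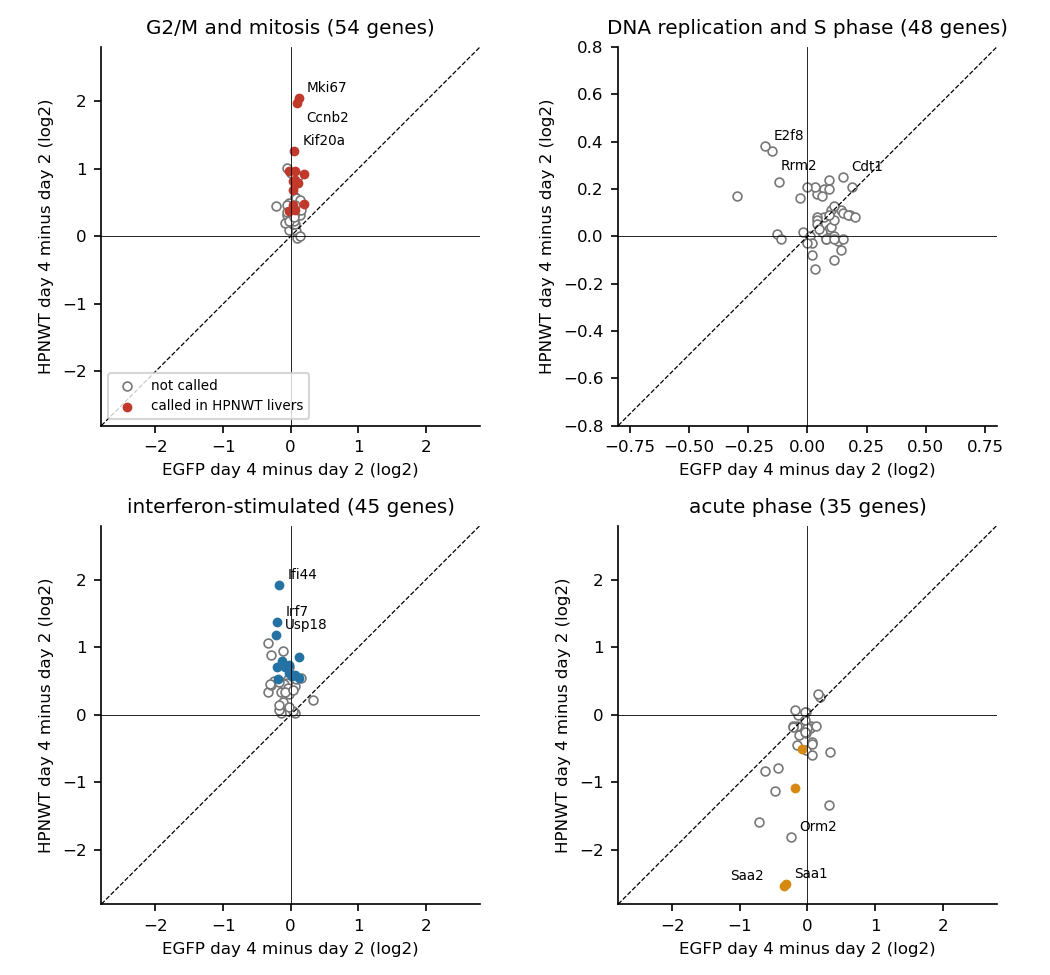
Change from day 2 to day 4 in HPNWT livers (vertical, log2) against the change in EGFP livers (horizontal, log2) for the members of 4 gene lists, with the line of equal change dashed. Called genes are filled; mitotic and interferon-stimulated genes lie above 0 in HPNWT livers at EGFP changes near 0, genes of DNA replication cluster near the origin on a finer scale, and Saa1 and Saa2 lie lowest among acute phase genes.

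Genes of stress, wound response and antioxidant defence made up a smaller group. Sprr1a, a cornified envelope protein induced in injured epithelia, had 3.35, 3.28 and 2.72 at day 2 and 5.49, 7.55 and 6.46 at day 4, against 2.55 to 3.46 in all EGFP arrays. This was the largest called rise, 3.38 log2 (SE 0.34, limma adjusted p = 0.000268), with a wide spread at day 4. Nupr1, a stress-induced chromatin protein, had 4.86, 5.30 and 4.65 at day 2 and 5.95, 6.08 and 6.30 at day 4, and rose by 1.17 (SE 0.13, adjusted p = 0.000444). Its 6 EGFP arrays lay between 3.96 and 4.11, below both HPNWT days. Anxa2, a membrane-binding annexin, had 5.55, 5.61 and 5.68 at day 2 and 6.18, 6.43 and 7.23 at day 4, and rose by 1.00 (SE 0.17, adjusted p = 0.0211). The lectin Lgals1 rose by 0.83 (adjusted p = 0.0441). Together these 4 genes were the calls among 35 measured genes of the hepatoblast, stress and regeneration list, against 0.213% of all single-symbol genes called higher. The median difference of the list was 0.24 in HPNWT and 0.16 in EGFP livers, and 0.14 in HPNWT livers without day 4 replicate 3.

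Other members of that list had wide spreads. Ly6d differed by 1.26 (adjusted p = 0.291), with a standard deviation of 1.31 over the arrays of day 4, and Krt23, a keratin, by 1.03 (0.533, standard deviation 1.42). The fetal liver gene Afp differed by −0.38 (adjusted p = 0.541). Krt8, the main keratin of hepatocytes, rose by 0.70 (1.62-fold, adjusted p = 0.0441). It was the single call among 22 genes of junctions and polarity, against 0.213% of all single-symbol genes called higher.

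Of 24 measured targets of NRF2, the transcription factor of the antioxidant response, 3 were called higher and 14 had an unadjusted p under 0.05 and a positive difference, against 0.213% and 5.32% of all single-symbol genes. Their median difference was 0.31 in HPNWT and 0.14 in EGFP livers, and 0.20 in HPNWT livers without day 4 replicate 3. Srxn1, sulfiredoxin, which repairs oxidised peroxiredoxins, had 7.94, 8.02 and 7.80 at day 2 and 8.77, 8.95 and 9.48 at day 4. It rose 2.21-fold (1.14 log2, SE 0.14, limma adjusted p = 0.00172), and its EGFP arrays lay between 7.54 and 7.90. Ugdh, which makes UDP-glucuronic acid for conjugation, had 7.94, 7.98 and 7.99 at day 2 and 9.02, 8.87 and 8.79 at day 4, a 1.90-fold rise (adjusted p = 0.0211). The EGFP arrays of Ugdh lay between 8.54 and 9.21 on both days, so the HPNWT level was low at day 2 and within the EGFP range at day 4. The cystine transporter Slc7a11 rose by 0.38 at dim signal. Nqo1, the quinone reductase often used to read this pathway, differed by 1.10 (adjusted p = 0.0551) and Gclc, the catalytic subunit of glutathione synthesis, by 0.69 (0.264). The autophagy receptor Sqstm1, also an NRF2 target, was on no list and rose by 0.56 (adjusted p = 0.0444).

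Further rises stood outside these groups. Serpina7, the thyroxine-binding globulin, had 5.46, 5.72 and 5.72 at day 2 and 6.94, 7.35 and 7.98 at day 4, a rise of 1.79 (SE 0.34, adjusted p = 0.0368). Its EGFP arrays also spread, from 5.29 to 5.88 at day 2 and from 5.14 to 6.68 at day 4. Pygb, the brain form of glycogen phosphorylase, had 5.43, 5.51 and 5.54 at day 2 and 6.36, 6.52 and 7.26 at day 4, a rise of 1.22 (SE 0.16, adjusted p = 0.00251). Akr1b7, an aldo-keto reductase, rose by 0.62 at dim signal. It was the single call among 22 female-biased liver genes, against 0.213% of all single-symbol genes called higher. Of these 22, 6 had an unadjusted p under 0.05 and a positive difference, against 5.32%, and 0 a negative one. Without HPNWT day 4 replicate 3 the positive number was 4, against 3.25%. Igfbp2, an insulin-like growth factor binding protein, rose by 0.73 in HPNWT livers, and the difference in EGFP livers was 0.49, so its difference of changes was 0.24 (adjusted p = 0.815).

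The falls were led by acute phase genes. Of 35 measured members, 4 were called lower and none higher, against 0.0166% of all single-symbol genes called lower. In 15 all arrays of day 4 lay below all arrays of day 2, against 4.09% of those genes, 15 had an unadjusted p under 0.05 and a negative difference against 2.75% of all single-symbol genes, and 1 had a positive one. The median difference was −0.27 log2 in HPNWT and −0.04 in EGFP livers. Saa1, a serum amyloid A protein, had 10.53, 8.91 and 9.52 at day 2 and 7.01, 7.08 and 7.34 at day 4. It fell 5.71-fold (−2.51 log2, SE 0.39, limma adjusted p = 0.0108), and the gap between the days was 1.57. In EGFP livers Saa1 had 11.72, 11.31 and 10.11 at day 2 and 11.16, 10.65 and 10.38 at day 4, above every HPNWT array of day 4.

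Saa2, its near-identical neighbour, had 9.87, 8.08 and 8.61 at day 2 and 6.30, 6.15 and 6.53 at day 4, a fall of 5.76-fold (−2.53 log2, SE 0.44, adjusted p = 0.0251). The 2 genes can share probe signal and are not independent. Saa1 means in HPNWT livers were 11.14 at day 1, 9.66 at day 2 and 7.14 at day 4. Fgl1, a fibrinogen-like protein secreted by hepatocytes, had 10.28, 9.63 and 10.35 at day 2 and 8.98, 9.11 and 8.94 at day 4, and fell 2.11-fold (adjusted p = 0.0374). Orm1, the acid glycoprotein orosomucoid, had 11.79, 11.74 and 11.87 at day 2 and 11.31, 11.36 and 11.22 at day 4, and fell 1.42-fold (−0.50 log2, SE 0.09, adjusted p = 0.0343). Its change was small beside Saa1, with standard deviations of 0.0679 and 0.0746.

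Other acute phase genes did not pass. Orm2, a paralog of Orm1, differed by −1.81, with a standard deviation of 1.06 at day 4 and an adjusted p of 0.0720. Lcn2, the siderophore-binding lipocalin, had 8.12, 7.78 and 7.84 at day 2 and 6.10, 6.17 and 6.70 at day 4. It differed by −1.59 in HPNWT livers (adjusted p = 0.130) and by −0.72 in EGFP livers. The metallothionein Mt2 differed by −1.34 (adjusted p = 0.409). Haptoglobin (Hp) and the fibrinogen chain Fgb differed by −0.01 and −0.17. No acute phase gene was called in the difference of changes, whose value was −2.19 for both Saa1 and Saa2 with adjusted p of 0.483 and 0.680.

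Apart from acute phase genes, 2 established genes fell. Slc1a2, a glutamate transporter of pericentral hepatocytes, had 6.78, 6.62 and 6.42 at day 2 and 5.89, 5.53 and 4.85 at day 4, a fall (−1.18 log2, SE 0.19, limma adjusted p = 0.0129). All its EGFP arrays lay higher, between 7.36 and 7.79. Among 21 measured pericentral genes Slc1a2 was the single call, against 0.0166% of all single-symbol genes called lower. Their median difference was −0.08. Slc13a3, a sodium-dependent dicarboxylate transporter, had 7.72, 7.50 and 7.84 at day 2 and 6.74, 6.76 and 6.88 at day 4, a fall of 1.86-fold (−0.89 log2, SE 0.13, adjusted p = 0.00760). The EGFP arrays, at 6.63 to 7.17 on both days, lay at the level of HPNWT day 4 and below HPNWT day 2.

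Most of hepatocyte metabolism showed no called change. No member was called among 46 drug metabolism genes (median 0.03), 35 of bile acid synthesis and transport (0.08), 30 of amino acid catabolism and the urea cycle (−0.03), 29 of fatty acid oxidation (0.13), 18 of lipogenesis (0.16), 21 of gluconeogenesis (−0.04) or 24 clock genes (0). Nor was any among 26 periportal genes (0.10), 40 of the respiratory chain (−0.01), 33 of ribosomal proteins (−0.02), 38 of ribosome biogenesis (0.10) and 33 of the unfolded protein response (−0.08). An unadjusted p under 0.05 and a positive difference held for 5.32% of all single-symbol genes. It held for 7 of the fatty acid oxidation, 8 of the drug metabolism and 5 of the periportal genes. With a negative difference the numbers were 0, 2 and 1, against 2.75%. Without HPNWT day 4 replicate 3 the positive numbers were 2, 6 and 1, against 3.25%. In 10 of the bile acid genes all arrays of day 4 lay above all of day 2, against 7.47%, and in 0 below. Of the unfolded protein response genes 8 had all arrays of day 4 below all of day 2, against 4.09%. In 3 they lay above, against 7.47%. Alb, albumin, had means of 12.87 and 12.77. Cyp7a1, the rate-limiting enzyme of bile acid synthesis, differed by 1.30 (SE 0.69, adjusted p = 0.694), with 5.71, 8.08 and 7.52 at day 2 and 8.61, 8.47 and 8.14 at day 4. Its EGFP arrays ran from 6.94 to 9.69, so the spread between animals was as wide as the difference.

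Among male-biased liver genes, which growth hormone pulses keep high in males, the calls of 2 related members turned on 1 array. None of 28 was called with all arrays, the median difference was −0.15 in HPNWT and −0.10 in EGFP livers, and 7 had an unadjusted p under 0.05 and a negative difference, against 2.75% of all single-symbol genes. In 3 of the 28 all arrays of day 4 lay below all arrays of day 2, against 4.09% of those genes. The median signal of the list was 9.42, 9.05 and 9.44 at day 2 and 8.86, 8.70 and 8.65 at day 4, without overlap, and 9.73 to 10.18 in the EGFP arrays. Replicate 3 was the lowest array of day 4 in this median. The member at the median can differ between arrays, so this step need not equal the median difference of −0.15. Cyp4a12b, a cytochrome P450 that hydroxylates fatty acids, had 9.98, 9.03 and 9.42 at day 2 and 7.74, 8.02 and 9.46 at day 4, against 10.99 to 11.47 in the EGFP arrays. Replicate 3 of day 4 lay within the range of day 2, and the difference was −1.07 (limma adjusted p = 0.317). Without that array 2 members were called lower, against 0.0304% of all single-symbol genes. They were Cyp4a12b (−1.60, SE 0.25, adjusted p = 0.0101) and its relative Cyp4a12a (−1.56, SE 0.24, adjusted p = 0.00886; −0.95 and 0.507 with the array), which was chosen after its values were seen and can share probe signal with it. In that fit the median of the list was −0.08, and 4 members had an unadjusted p under 0.05 and a negative difference. The share over all single-symbol genes was 2.02%.

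Genes of cholesterol synthesis and uptake had a median difference of −0.10 in HPNWT livers and 0.43 in EGFP livers, with no call in either. In EGFP livers 13 of 24 had an unadjusted p under 0.05 and a positive difference, against 2.47% of all single-symbol genes, and in HPNWT livers none did. Sqle, squalene epoxidase, had 8.45, 8.50 and 8.54 at day 2 and 8.26, 8.19 and 8.41 at day 4 in HPNWT livers. In EGFP livers it had 6.28, 7.38 and 7.88 at day 2 and 7.87, 7.83 and 7.85 at day 4, so the EGFP difference came with a low array at day 2. The difference of changes had an unadjusted p under 0.05 in 8 members, all negative, against 2.63% of all single-symbol genes, and none was called.

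Proteasome subunits gave no call. Of 30 measured, all 30 differences were above 0 with a highest value of 0.32, and 14 had an unadjusted p under 0.05, against 5.32% of all single-symbol genes with such a p and a positive difference. Their median was 0.17 in HPNWT and 0.05 in EGFP livers. Without HPNWT day 4 replicate 3 the median was 0.11 and 3 had such a p, against 3.25%. Psma5, a subunit of the core ring, had 6.91, 7.05 and 7.07 at day 2 and 7.23, 7.37 and 7.40 at day 4 (difference 0.32, adjusted p = 0.104), against 7.24 to 7.41 in the EGFP arrays. The HPNWT arrays of day 2 thus lay below all EGFP arrays and those of day 4 beside them.

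Akr1c18 and Cyp2b9 kept high levels in HPNWT livers on both days. Akr1c18, a hydroxysteroid dehydrogenase that inactivates progesterone, had 8.87, 8.83 and 9.26 at day 2 and 9.65, 9.83 and 9.63 at day 4, against 3.76 to 4.15 in the EGFP arrays. The step between the HPNWT days, 0.71 (SE 0.24), was not called (adjusted p = 0.375) although the days did not overlap. Cyp2b9, a cytochrome P450, had 7.52, 8.41 and 7.59 at day 2 and 8.90, 9.53 and 8.47 at day 4 (difference 1.12, adjusted p = 0.315). Angptl8, a secreted regulator of lipoprotein lipase, had 9.46, 10.64 and 10.04 at day 2 and 10.48, 9.89 and 9.26 at day 4, without a difference beyond its spread (−0.17, SE 0.52).

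**Figure D4:**
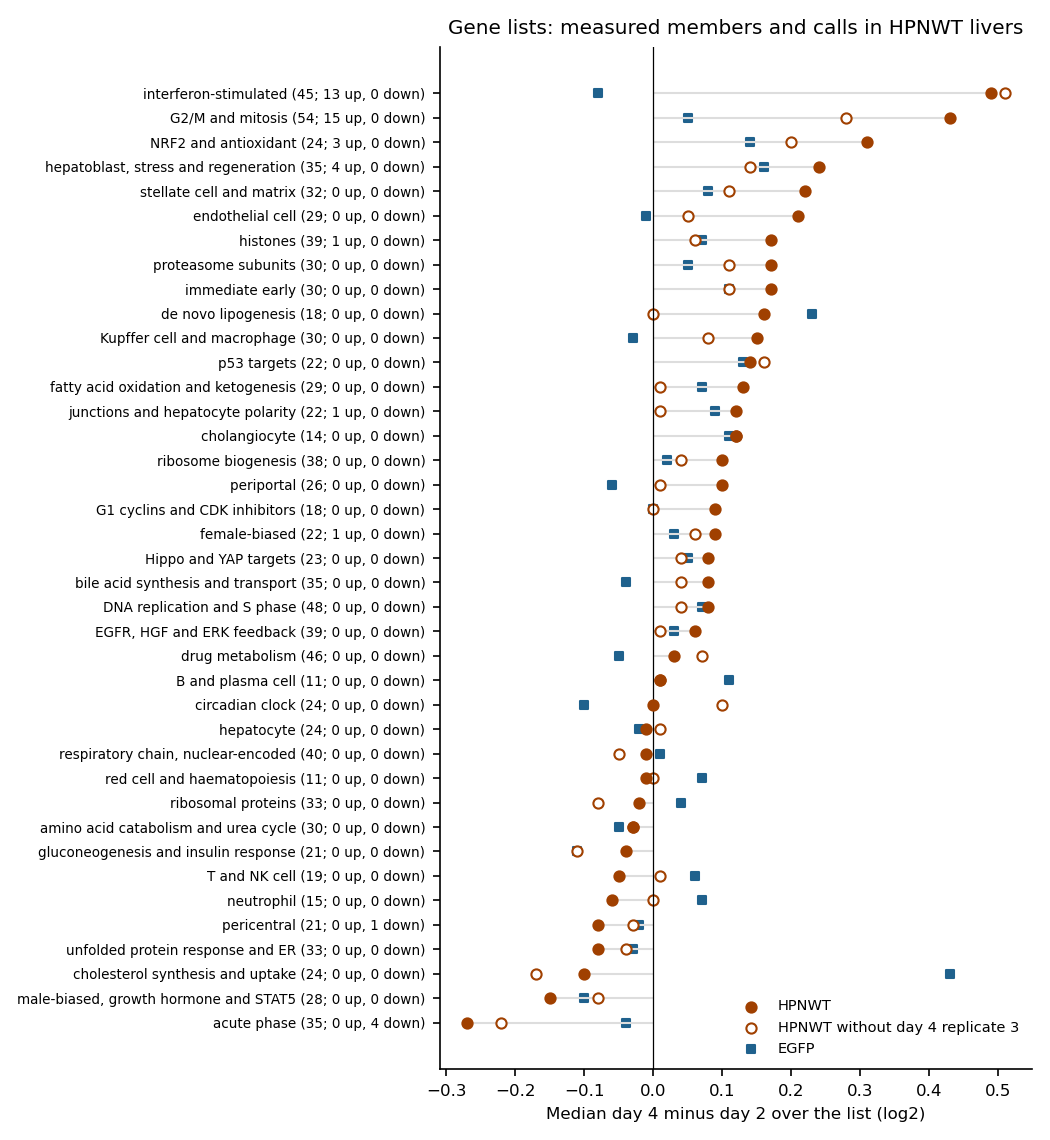
Median change from day 2 to day 4 (log2) of the 39 gene lists in HPNWT livers, in HPNWT livers without day 4 replicate 3 and in EGFP livers; labels give the measured members and the calls up and down. Interferon-stimulated genes have the highest HPNWT median with and without that array (0.49 and 0.51), the mitotic median is 0.43 with it and 0.28 without it, acute phase genes have the lowest median (−0.27), and cholesterol genes have the highest EGFP median (0.43).

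The hepatocyte markers had a summed log2 signal of 6 markers of 70.8 to 71.3 over the arrays of day 2 and 70.1 to 71.1 over those of day 4. None of the markers of any other cell type was called with all arrays. The summed signal of 6 endothelial markers was 42.9 to 44.2 at day 2 and 44.4 to 48 at day 4, that of 6 stellate cell markers 37.3 to 38.2 and 38.1 to 42.5, and that of 6 cholangiocyte markers 32.6 to 33 and 34.2 to 35.6. Monocyte and macrophage markers had 31.2 to 31.3 and 31.3 to 34.7, with Ccr2, Ly6c2 and Itgam dim, and Kupffer cell markers 40.6 to 42.2 and 40.1 to 43.4. All 6 markers each of neutrophils, of T and natural killer cells and of B cells were dim on both days, with sums of 20.1 to 21.1 and 19.6 to 21, of 22.8 to 22.9 and 23 to 23.3, and of 20.5 to 21.4 and 21.2 to 22.8. Of 4 measured red cell markers 1 was not dim, and their sums were 20.7 to 21.2 and 20.4 to 21.3. In the longer lists, 13 of 32 stellate cell, 10 of 29 endothelial and 12 of 30 macrophage genes had an unadjusted p under 0.05 and a positive difference, against 5.32% of all single-symbol genes, with medians of 0.22, 0.21 and 0.15. Lyve1, a receptor of sinusoidal endothelium, had 7.53, 7.40 and 7.68 at day 2 and 8.03, 7.91 and 9.01 at day 4 (difference 0.78, adjusted p = 0.291). Several of these sums were higher at day 4, as were the mitotic and interferon-stimulated genes, and their part in those results was not tested.

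Without HPNWT day 4 replicate 3 the difference was smaller in 51 of the 54 mitotic genes, and it was larger in 31 and smaller in 14 of the 45 interferon-stimulated genes. The number of called clusters was 87, of which 59 were among the 86 called with it, 75 higher and 12 lower. Mitotic calls numbered 16 with a list median of 0.28, and interferon-stimulated calls 15 with a list median of 0.51, against 0.196% of all single-symbol genes called higher. Mki67 rose by 1.57 (limma adjusted p = 7.13e-07), Ifi44 by 2.52 (1.77e-07) and Irf7 by 1.61 (2.71e-05) in that fit. Saa1 still fell by 2.61 (adjusted p = 0.0193), while Fgl1 and Orm1 lost their calls (0.126 and 0.117), as did, among others, Serpina7 (0.157), Krt8 (0.0959), Lgals1 (0.179), Zbp1 (0.0573) and H2afz (0.148). The medians of stellate cell, endothelial and macrophage genes were 0.11, 0.05 and 0.08 without it. In these 3 lists 5 of 32, 1 of 29 and 8 of 30 genes then had an unadjusted p under 0.05 and a positive difference, against 3.25% of all single-symbol genes. The monocyte marker Ly6c2, dim on both days, was then called higher (0.78, SE 0.14, adjusted p = 0.0309), against 0.61 and 0.115 with the array.

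The difference of changes was then called for 25 clusters (0.0622%), all with a single established symbol. Mitotic genes among them were Ccnb2 (1.53, SE 0.11, limma adjusted p = 5.35e-06), Mki67 (1.45), Kif20a (0.90), Hmmr (0.64), Tpx2 (0.62), Ccna2 (0.61) and Prc1 (0.44). Interferon-stimulated genes among them were Ifi44 (2.69, SE 0.18, adjusted p = 5.35e-06), Irf7 (1.81), Usp18 (1.65), Gbp3 (1.04), Oas1a (1.04), Isg15 (0.88) and Oas1g (0.81). Cdkn3 (1.13), Apol9a (1.46), Apol9b (1.37), Pygb (0.82), Nupr1 (1.06) and Anxa2 (0.68) were called too. No acute phase gene was called in it. With all arrays in, these differences have the same sign, and the calls are limited to Ccnb2 and Cdkn3. Replicate 3 was the lowest array of HPNWT day 4 in Ifi44, Irf7 and Usp18. Without HPNWT day 4 replicate 1 instead, the difference of changes was called for 13 clusters. Established genes among them included Sprr1a (3.49), Mki67 (2.19), Ccnb2 (2.08) and Kif20a (1.39), and no member of the interferon-stimulated list. Without HPNWT day 4 replicate 2 it was called for 4 clusters.

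All calls rest on the spread shared over 18 arrays. In a fit of the 6 HPNWT arrays alone limma called 0 clusters, 2010 had an unadjusted p under 0.05, and the smallest adjusted p of the named genes was 0.0889, while the differences were the same by construction. An exact permutation test of 3 against 3 arrays cannot go below p = 0.1. In the authors' deposited table of group averages, made on another scale, all 86 called clusters had the same sign of change between the days. These averages are of the same arrays, so the shared sign is no independent check. The Mki67 average in the authors' deposited table was 4.26 at day 2 and 6.61 at day 4 in HPNWT livers, and 3.84 and 4.05 in EGFP livers.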

How the data were processed

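Liver RNA of 18 mice was measured on Affymetrix arrays of the type MTA 1.0, per the labels. The values used are log2 expression, deposited by the authors after robust multi-array averaging with their Transcriptome Analysis Console software, per the labels. The authors' deposited comparison tables gave gene symbols and group averages on a log2 scale whose settings are not given in the sources used here. Of 65956 transcript clusters, 40161 carry a symbol. These were fitted in limma 3.58.1 (R 4.3.3, statmod 1.5.0) with 6 group means over all 18 arrays (lmFit and eBayes), without further scaling, filter or covariate. Contrasts were day 4 minus day 2 in HPNWT livers, the same in EGFP livers, and the difference of both. P-values are 2-sided and adjusted by Benjamini-Hochberg over all 40161 clusters. Values of 3 arrays give the SD, and the fit the SE; the number of arrays limits the precision.

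For gene lists, the brightest cluster of each of 36230 single symbols was taken. The 39 lists hold 1115 genes, of which 1055 were matched. The comparison and the lists were chosen with earlier results of these data known. Named genes are Hpn and landmark genes, the 12 largest rises and falls among called genes that were not dim, 4 called members (or 2 members where none was called) of each list by p, and the genes called in the difference of changes. Not every gene that this rule names is reported here. Array spread, low signal, scaling, weights, a replicate block and each HPNWT and EGFP array of these days left out in turn were tried as alternatives. Deviations from the group mean of same-numbered HPNWT arrays of the 2 days had correlations of 0.06, 0.14 and 0.12. Those of differently numbered arrays ran from −0.17 to 0.12. The labels do not say that the numbers pair animals, so they were not taken to, and the block is an alternative. On simulated data the fit recovered 48.8% of changes of 0.5 log2, 97.5% of changes of 1 and 100% of changes of 2. Of the clusters called there, 6.55% were false. The simulation gave a cluster the same spread in every group. In the data the spread can differ, as in Mki67 in HPNWT livers (SD 0.154 at day 2 and 0.829 at day 4). Promoter sequences are from RefSeq on GRCm38.p6, with 1 window per symbol; no genome was used.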

Additional observations from a re-analysis of the deposited data

Results flagged for a closer look

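The changes of 2 genes between day 2 and day 4 differed between HPNWT and EGFP livers by the test of the difference itself. For Ccnb2, the B-type cyclin, the HPNWT change exceeded the EGFP change by 1.87 log2 (SE 0.26, limma adjusted p = 0.0449), with all 3 HPNWT arrays of day 4 above all other arrays of these days. Its adjusted p passed the threshold without HPNWT day 4 replicate 1 (0.00310), replicate 2 (0.0212) or replicate 3 (5.35e-06). It did not pass without HPNWT day 2 replicate 1 (0.115), replicate 2 (0.151) or replicate 3 (0.199), nor without any single EGFP array of these days, where it ran from 0.0622 to 0.231. Nor did it pass after median centring (0.0563), with the negative-control covariate (0.191) or with the replicate block (0.0526), while it passed after quantile normalization (0.0305), with trended moderation (0.0360) and with array weights (0.000108). For Cdkn3, the phosphatase of cyclin-dependent kinases, the HPNWT change exceeded the EGFP change by 1.12 log2 (SE 0.13, limma adjusted p = 0.00739). It passed with any single array of these days left out, with adjusted p of 0.000963 to 0.0461. It also passed under those 6 settings, with adjusted p of 0.000947 to 0.0289. With the 12 arrays of both days alone neither passed, with adjusted p of 0.295 for Ccnb2 and 0.0868 for Cdkn3. Both genes were dim on both days in both kinds of liver.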

How the results depend on the processing

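The counts of calls depended on how the spread was estimated, on the scaling of the arrays and on which clusters were tested. None of the 34 named genes called in HPNWT livers reversed its direction under any alternative that gave it a value. Against 86 calls between the days there were 48 after median centring, 34 with the 12 arrays of both days, 0 with the 6 HPNWT arrays alone, 182 without dim clusters (where fewer clusters were tested) and 424 with array quality weights, which gave HPNWT day 4 replicate 3 a weight of 0.142. Quantile normalization, trended moderation and a negative-control covariate gave 83, 84 and 84. Against 2 calls in the difference of changes there were 5 after quantile normalization, 0 with the 12 arrays, 0 without dim clusters, 47 with weights and 1 with the covariate, and 2 after median centring, of which 1 was shared; Ccnb2 was the gene lost under centring, the covariate and the replicate block. Against 15 mitotic calls there were 5 after centring, 9 after quantile normalization, 4 with the 12 arrays, 0 with the 6 and 32 with weights; no mitotic gene passes the filter on dim clusters. Against 13 interferon-stimulated calls there were 6, 0, 8 without dim clusters and 25 with weights. Acute phase calls (4) were 2 after centring, 1 with the 12 arrays and 0 with the 6. NRF2 calls (3) were 1, 0 and 5 with weights. Stress and regeneration calls (4) were 2 after centring, 2 with the 12 arrays and 0 with the 6.

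With the replicate number as a block, 67 clusters were called, 1 in the difference of changes, with 8 mitotic and 2 acute phase calls. Same-numbered EGFP arrays had correlations of −0.21, 0.02 and −0.03, and differently numbered ones ran from −0.12 to 0.15. The numbers are not shown to pair animals.

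With 1 HPNWT array left out in turn, calls ran from 20 (without day 2 replicate 1) to 127 (without day 4 replicate 1), with 25 and 40 without day 2 replicates 2 and 3 and 40 without day 4 replicate 2. Calls in the difference of changes ran from 1 to 25, EGFP arrays included. Mitotic calls ran from 4 to 24, interferon-stimulated from 3 to 15, acute phase from 0 to 3, NRF2 from 1 to 4 and stress and regeneration from 2 to 8. EGFP livers had 0 calls in each of these fits that were run. The 5 genes given here that changed sign were not called in any of them. They were Hpn (−0.03 with weights), Cdkn1a (−0.02), Mcm2 (−0.05), Alb (0.02) and Angptl8. With 1 array left out they ran from −0.05 to 0.21 for Hpn, −0.05 to 0.28 for Cdkn1a, −0.11 to 0.20 for Mcm2, −0.16 to 0.03 for Alb and −0.47 to 0.14 for Angptl8, with the sign turned without day 4 replicate 3 in all 5, and without day 2 replicate 2 in Angptl8 (0.13). The cause of these shifts was not tested. Signal near the negative controls limits the mitotic group and the DNA replication group.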
